A study of Homo sapiens with 8 samples.

Results

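The replication-dependent histone genes make the bulk of the histone proteins that package newly copied DNA. Here they were the protein-coding genes of the authors' table whose names begin with HIST1H, HIST2H, HIST3H or HIST4H and that had at least 40 reads summed over all 8 libraries. The rule kept 48 of the 25945 genes in the table, and 12 of the 60 protein-coding genes with such names fell below the minimum. By protein class the members were 4 genes for linker histone H1, 11 for H2A, 15 for H2B, 9 for H3 and 9 for H4. By genomic cluster, 41 lay in HIST1 on chromosome 6, 4 in HIST2 and 2 in HIST3 on chromosome 1, and 1, HIST4H4, on chromosome 12.

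The cells were MiaPaCa-2, an established human pancreatic cancer line that the labels call wild type. They were harvested 48 h after transfection with BARD1 siRNA (4 libraries) or with SCR siRNA, called control siRNA here (4 libraries). The study silenced BARD1, which pairs with BRCA1 to form a ubiquitin ligase of homologous recombination repair, to see its effect in pancreatic ductal adenocarcinoma cells. Nothing in the labels ties the libraries of a group to separate cultures. The p-values therefore reflect the spread among these libraries alone, which could be technical, and all results hold for 1 cell line.

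Histone genes of this kind lie in clusters, mostly lack introns and are transcribed mainly while DNA is copied. Their main transcripts are not polyadenylated: they end just after a short RNA hairpin, the stem-loop, which the protein SLBP binds and next to which the U7 small nuclear RNP directs cleavage. Some of these genes are also known to give longer transcripts that run past the stem-loop to a polyadenylation signal. The libraries were made from RNA selected on poly-T beads, so the values below describe the polyadenylated transcripts of these genes (and any carry-over of the others), not the main histone mRNA.

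The stem-loop is the sequence that sets these transcripts apart, and it is shown for 4 members whose values are described below, with the 16 bases of the hairpin in capitals and up to 5 flanking bases in lower case, 5′ to 3′ on the gene's own strand, from GENCODE release 29 transcripts.
HIST3H2A: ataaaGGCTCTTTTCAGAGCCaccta
HIST2H2BE: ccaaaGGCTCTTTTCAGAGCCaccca
HIST1H2BD: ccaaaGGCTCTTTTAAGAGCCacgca
HIST1H4H: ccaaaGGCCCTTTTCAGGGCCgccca
On GRCh38 the hairpins lie at chr1:228457369-228457384 (minus strand), chr1:149886188-149886203 (minus strand), chr6:26158587-26158602 (plus strand) and chr6:26285131-26285146 (minus strand). The first and the second share the same 16 bases, which annotated transcripts of 12 members carry. For HIST1H2BN, among these, the match lies at chr6:27865778-27865793, far from the start of that gene. It lies just past the start window of HIST1H2AL (27865067 to 27865366, same strand), whose own annotated transcript does not hold the letters. The form in HIST1H2BD is carried by 3 members, and that in HIST1H4H by 4.

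A search for a 16-base stem-loop pattern (GG, any 2 bases, CTT, any base, T, any base, A, any 3 bases, CC), which allows for these forms, on the transcribed strand of the annotated transcripts found the letters in 22 of the 48 members, against 1.61% of 19684 protein-coding genes. In the other 26 members the annotated transcript does not hold these letters, and it can be short, such as that of HIST1H4D with 312 bases. In 17 members an annotated transcript continues for 100 bases or more beyond the stem-loop. That of HIST2H2BE continues for 1729 bases, that of HIST1H3H for 769 and that of HIST3H2A for 390, and the longest of HIST1H4H for 1655. Those 17 members held 28.1% of the members' reads. The counts were made on another annotation, which need not cover these extensions. Its gene lengths were 496 bases for HIST3H2A and 473 for HIST1H3H, against 895 and 1237 bases for the longest transcripts used here. In 15 members AATAAA or ATTAAA, the common polyadenylation signals, lay within the last 50 bases of an annotated transcript.

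Polyadenylated histone transcripts were scarce and very unevenly spread over the members. All members together took 0.0191% to 0.0240% of the counts of a library. HIST1H2BK, an H2B gene, alone held 36.1% of the members' 52017 reads, the first 2 members held 52.2%, the first 5 held 71.3% and the first 8 held 80.0%. Per length, in the authors' FPKM averaged over the 8 libraries, HIST1H2BK stood at 96.2, above 95.5% of the 12959 protein-coding genes with at least 40 reads. HIST1H1C, which encodes the linker histone H1.2, followed at 48.5 FPKM, then HIST3H2A at 35.2, HIST2H2AC at 15.5 and HIST1H2BD at 11.3. The median member stood at 1.59 FPKM, against 7.25 FPKM for those protein-coding genes, and 35 of the 48 members reached 1 FPKM. The lowest was HIST1H4I, an H4 gene, at 0.381 FPKM. This order depends on the gene lengths of the authors' table, such as 2223 bases for HIST2H2BE and 437 for HIST2H2AC. The highest level also differed between classes: the highest H3 gene, HIST1H3H, had 5.89 FPKM and the highest H4 gene, HIST1H4H, had 3.42 FPKM.

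The reads of some members cannot be assigned with certainty, since histone genes of a class are near copies. In 6 members, HIST1H2BK, HIST1H2AJ, HIST1H2AI, HIST1H3J, HIST2H3D and HIST1H4J, at least 50% of the 50-base windows of the annotated transcripts also occur in another histone gene. For HIST1H2BK the share was 74.1%, counted over an annotated transcript that holds the coding part alone. The handling of reads that map to several genes and the use of strand in counting are not given in the sources used here. HIST1H4I lies within the span of HIST1H2BK on the opposite strand, and HIST1H2BD overlaps the pseudogene LARP1P1 on the same strand.

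The silenced gene fell in every BARD1 siRNA library. BARD1 had 3.56, 2.24, 2.45 and 7.59 CPM (library-size-scaled counts, adjusted by TMM) in the BARD1 siRNA libraries 1 to 4, against 26.9, 28.0, 26.9 and 20.8 CPM in the control siRNA libraries 1 to 4. The groups did not overlap (log2 fold change -2.69, SE 0.36, edgeR adjusted p = 0.00397). Library 4 of the BARD1 siRNA group held the highest residual level, 36.5% of its control siRNA partner, against 8.02% to 13.3% in pairs 1 to 3. Total counts ran from 24458665 to 36212716 per library, where 3 reads are worth 0.0828 to 0.123 CPM, and the median member had 21.5 to 37.5 reads per library. The libraries numbered 4 stood apart: mitochondrial genes took 4.44% and 3.26% of the counts in BARD1 siRNA library 4 and control siRNA library 4, against 0.695% to 2.02% in the other 6. Results are therefore also given without both. The line's keratins KRT8, KRT18 and KRT19 and VIM were high in every library, whereas EPCAM and KRT7 were at or near 0. Fibroblast markers summed to 1.002 to 2.61 CPM in BARD1 siRNA libraries and 0.700 to 2.17 CPM in control siRNA libraries. Endothelial markers summed to 6.74 to 10.2 CPM in BARD1 siRNA libraries and 3.68 to 5.18 CPM in control siRNA libraries, nearly all of it CDH5, which passed the test, while VWF was near 0. Leukocyte markers and the endothelial marker PECAM1 were not analysed here.

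As a whole the histone transcripts of the groups differed by less than the spread between libraries. The members summed to 219, 248, 218 and 178 CPM in BARD1 siRNA libraries 1 to 4, against 219, 234, 244 and 202 CPM in control siRNA libraries 1 to 4. The groups overlapped, with means of 216 ± 28.4 CPM in BARD1 siRNA libraries and 225 ± 18.3 CPM in control siRNA libraries (SD, n = 4 each) and a log2 ratio of -0.057. That ratio was 0.024 without BARD1 siRNA library 4, so its sign depends on that library. Without HIST1H2BK it was -0.15.

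**Figure D1:**
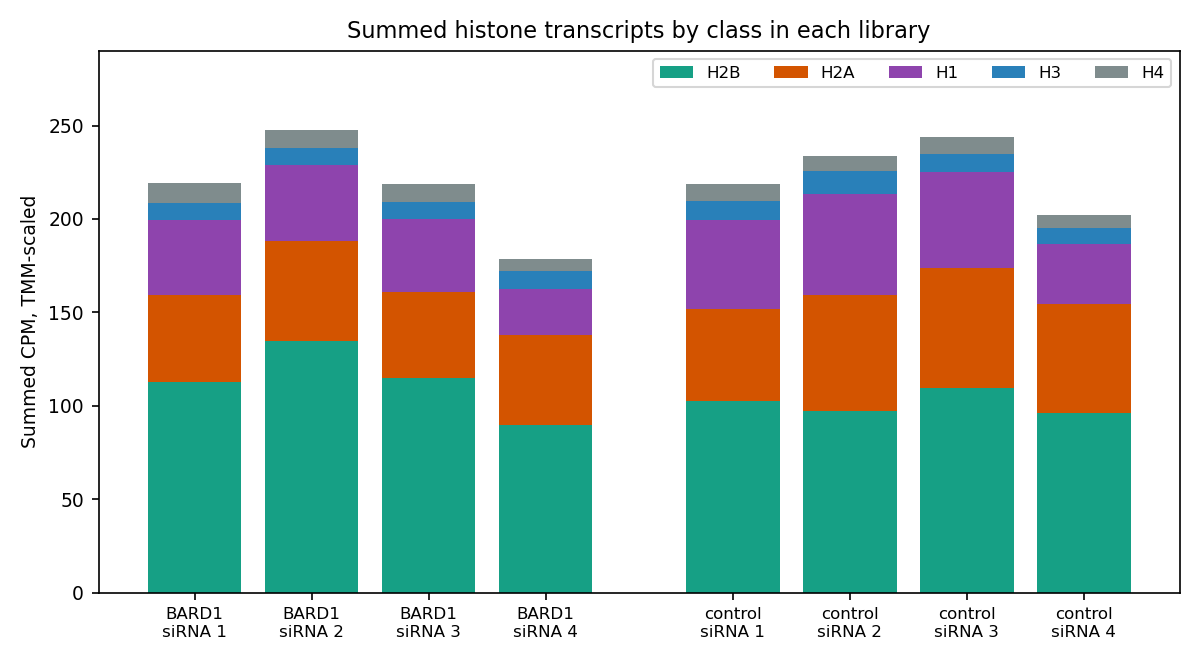
Summed CPM of the histone genes in each library (x axis: library, BARD1 siRNA 1 to 4 on the left and control siRNA 1 to 4 on the right; y axis: TMM-scaled CPM), stacked by class. The totals of the groups overlap, from 178 to 248 CPM with BARD1 siRNA and from 202 to 244 CPM with control siRNA, and H2B transcripts, most of them HIST1H2BK, make the largest part of each bar.

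Beneath this total, the H1 and H2A sums differed between the groups by more than the larger SD, and the H2B, H3 and H4 sums by less. Summed H1 transcripts averaged 35.97 ± 7.59 CPM in BARD1 siRNA libraries and 46.2 ± 9.81 CPM in control siRNA libraries (log2 ratio -0.36), and all 4 H1 genes had a negative log2 fold change. Summed H2A transcripts averaged 48.7 ± 3.40 CPM in BARD1 siRNA libraries and 58.5 ± 6.58 CPM in control siRNA libraries (log2 ratio -0.27). Summed H2B transcripts averaged 113 ± 18.2 CPM in BARD1 siRNA libraries and 101 ± 6.22 CPM in control siRNA libraries (log2 ratio 0.16; SD, n = 4 throughout), and in pair 4 they ran the other way, at 90.0 CPM in the BARD1 siRNA library and 96.1 CPM in the control siRNA library. H2B transcripts made up 52.2 ± 1.68% of the members' reads in BARD1 siRNA libraries and 45.2 ± 2.73% in control siRNA libraries. HIST1H1C made up most of the H1 sum and HIST1H2BK most of the H2B sum. H3 sums averaged 9.33 ± 0.349 CPM in BARD1 siRNA libraries and 10.3 ± 1.64 CPM in control siRNA libraries, and H4 sums 8.94 ± 1.87 CPM in BARD1 siRNA libraries and 8.30 ± 1.07 CPM in control siRNA libraries. No test was made on these sums.

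Gene by gene, no member passed the test that treats the libraries as unpaired. Of the 48 members 43 had enough reads for it, 0 were higher and 0 lower at an edgeR adjusted p under 0.05, and 3 (HIST3H2A, HIST1H2BD and HIST2H2BE) had an unadjusted p under 0.05, while 5.05% of all 14528 genes tested were called. With a filter blind to group, the sum of 40 reads, all 48 members were tested and again 0 were called, against 4.09% of all genes. DESeq2, which gave an adjusted p for 21 members, called HIST2H2BE higher and HIST3H2A lower, against 10.3% of all genes (4.55% higher and 5.72% lower). The median log2 fold change of the 43 members was -0.12, against 0.0088 for all genes tested, and 16 were positive and 27 negative. An adjusted p was given for 24 members in the authors' deposited table, and it was under 0.05 for HIST2H2BE (log2 fold change 0.53, adjusted p = 0.0485) and just above for HIST3H2A (log2 fold change -0.46, adjusted p = 0.0508).

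Libraries numbered 4 deviated together from their group means (correlation 0.856). For numbers 1 to 3 the correlation of same-numbered libraries, 0.487 to 0.596, overlapped that of unlike numbers, 0.366 to 0.510. The pairing of libraries 1 to 3 thus rests on their labels. With the replicate number as a block 5 of the 43 members passed (11.6%), against 23.6% of all genes tested. HIST2H2BE and HIST1H2BD were higher (11.0% of all genes were called higher), and HIST1H1C, HIST3H2A and HIST2H2AC were lower (12.6% of all genes were called lower). The same 5 passed with all 48 members tested under the blind filter, against 20.8% of all genes. All 5 were among the 16 members with a mean of at least 50 reads per library, or 31.3% of these, against 27.9% of all genes of that depth called, and whether the members' share of calls differs from that of all genes was not tested. Of the 32 members below 50 reads 0 passed, against 1.70% of genes of that depth. Their median SE with the block was 0.57 on the log2 scale, against 0.21 for the deeper members, so changes of moderate size were not detectable in them at this depth.

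**Figure D2:**
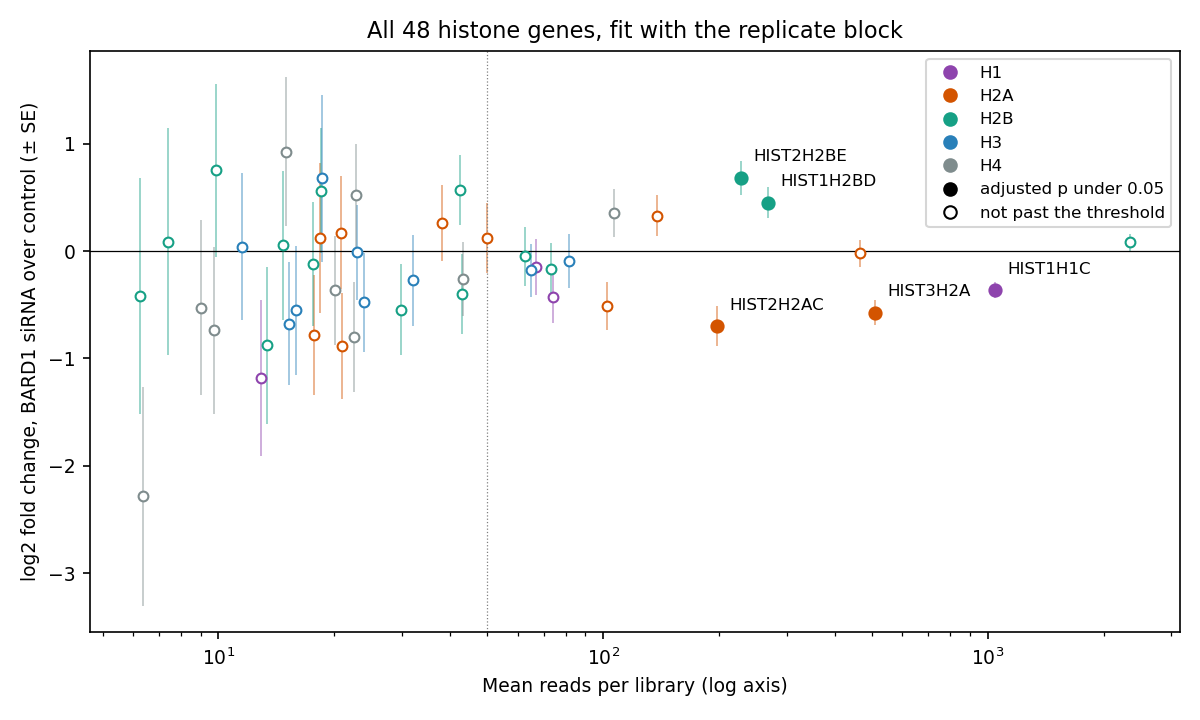
Log2 fold change of BARD1 siRNA over control siRNA (y axis, bars ± SE, fit with the replicate block) against the mean reads per library (x axis, log scale) for the 48 histone genes, coloured by class, with genes past an adjusted p of 0.05 filled. The dotted line marks 50 reads: the 5 filled points lie to its right, and to its left the SE runs from 0.32 to 1.10.

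Among the H1 genes, HIST1H1C fell in the fit with the block. It had 35.6, 33.9, 33.8 and 21.8 CPM in BARD1 siRNA libraries 1 to 4, against 41.2, 45.5, 46.1 and 28.1 CPM in control siRNA libraries 1 to 4. It was lower in each of the 4 pairs, by 0.21 to 0.44 on the log2 scale, although the groups overlap because control siRNA library 4 was low too. Its log2 fold change stood at -0.36 without the block (SE 0.19, edgeR adjusted p = 0.360) and the same with it (SE 0.07, edgeR adjusted p = 0.00310). It passed the blocked test with any 1 pair left out (edgeR adjusted p from 0.000275 to 0.0348). HIST1H1E, the gene of H1.4, had 2.16, 3.25, 2.07 and 1.39 CPM in BARD1 siRNA libraries, against 3.29, 3.05, 2.67 and 2.49 CPM in control siRNA libraries, with overlap and no call under either fit (log2 fold change -0.42, SE 0.25, edgeR adjusted p = 0.257 with the block).

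Among the H2A genes, HIST3H2A and HIST2H2AC fell in the fit with the block. HIST3H2A, the H2A gene of the small HIST3 cluster, had 11.1, 14.7, 11.5 and 19.6 CPM in BARD1 siRNA libraries 1 to 4, against 19.3, 20.4, 20.7 and 22.2 CPM in control siRNA libraries 1 to 4. BARD1 siRNA library 4 reached the control range, and the other 3 were below every control siRNA library. Its log2 fold change stood at -0.54 without the block (SE 0.18, edgeR adjusted p = 0.128) and -0.57 with it (SE 0.12, edgeR adjusted p = 0.0033), and it passed with any 1 pair left out (edgeR adjusted p up to 0.0398). It also passed the unpaired test without BARD1 siRNA library 4, at -0.73 (edgeR adjusted p = 0.00338). Its annotated transcript holds both the stem-loop printed above and a polyadenylation signal near the end.

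HIST2H2AC, an H2A gene of the HIST2 cluster, had 3.90, 8.42, 3.18 and 5.76 CPM in BARD1 siRNA libraries 1 to 4, against 6.50, 8.60, 8.08 and 9.61 CPM in control siRNA libraries 1 to 4. BARD1 siRNA library 2 lay within the control range, the other 3 were below it, and pair 2 differed by only 0.029 on the log2 scale. With the block its log2 fold change reached -0.70 (SE 0.19, edgeR adjusted p = 0.0167), and without it -0.63 (SE 0.29, edgeR adjusted p = 0.288). The blocked call was lost without pair 1 (edgeR adjusted p = 0.0766) or pair 3 (edgeR adjusted p = 0.120).

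Among the H2B genes, HIST2H2BE and HIST1H2BD rose in the fit with the block, and they were the only 2 of the 48 members whose groups did not overlap, against 13.0% of all genes tested (5.46% higher). HIST2H2BE, an H2B gene of the HIST2 cluster, had 8.11, 9.49, 8.05 and 11.5 CPM in BARD1 siRNA libraries 1 to 4, against 4.94, 4.05, 6.48 and 7.95 CPM in control siRNA libraries 1 to 4. The lowest BARD1 siRNA library was just above the highest control siRNA library. It had a log2 fold change of 0.66 without the block (SE 0.23, edgeR adjusted p = 0.142) and 0.68 with it (SE 0.16, edgeR adjusted p = 0.0073). The blocked call was lost without pair 2 (edgeR adjusted p = 0.0506).

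HIST1H2BD had 10.3, 11.6, 10.4 and 9.01 CPM in BARD1 siRNA libraries 1 to 4, against 8.19, 6.14, 8.46 and 7.41 CPM in control siRNA libraries 1 to 4. The log2 fold change came to 0.46 without the block (SE 0.15, edgeR adjusted p = 0.132) and 0.46 with it (SE 0.14, edgeR adjusted p = 0.0332). Of the 5 calls this one was lost most often in the blocked fits with 1 pair left out: without pair 1, 2 or 3 (edgeR adjusted p from 0.0775 to 0.197). HIST1H2BD did pass the unpaired test without BARD1 siRNA library 4, at 0.52 (edgeR adjusted p = 0.0426). HIST1H2BK had 83.5, 97.5, 85.4 and 61.6 CPM in BARD1 siRNA libraries 1 to 4, against 77.1, 75.6, 80.8 and 72.1 CPM in control siRNA libraries 1 to 4. Here BARD1 siRNA libraries 1 to 3 were above every control siRNA library and library 4 was below every one, and the log2 fold change of 0.10 (SE 0.13) did not pass (edgeR adjusted p = 0.758).

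**Figure D3:**
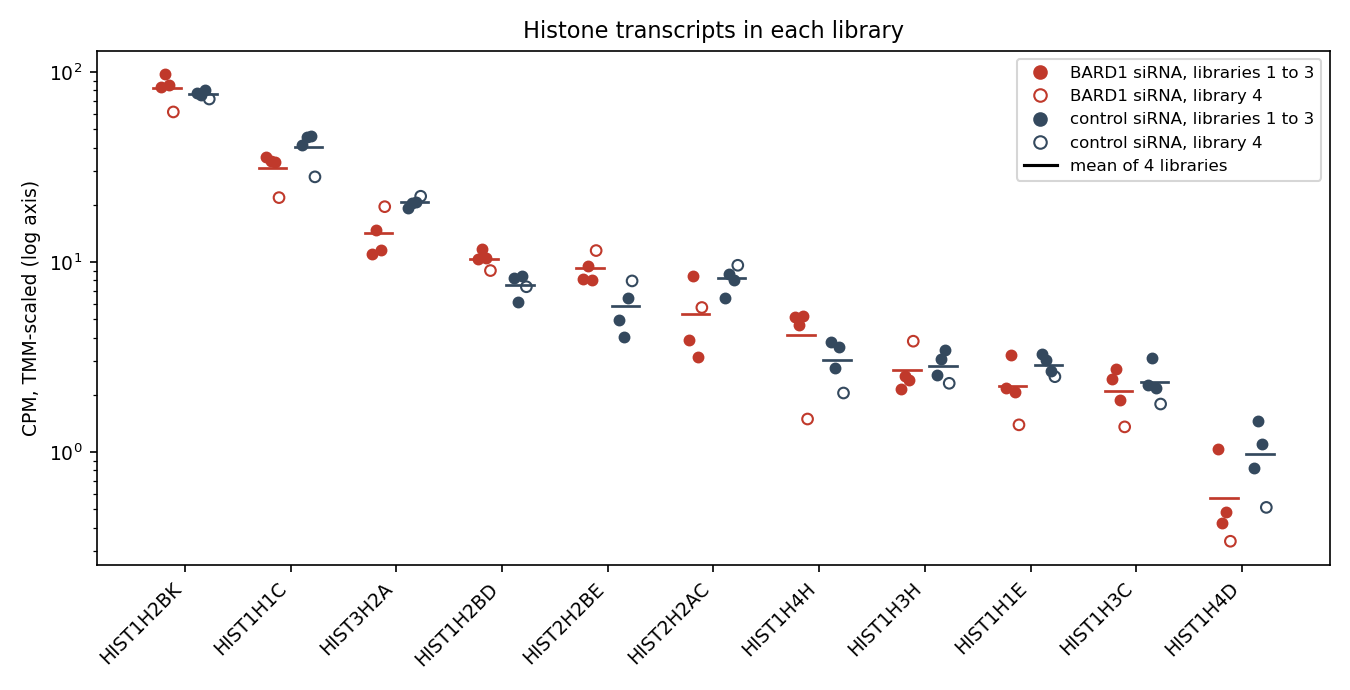
TMM-scaled CPM (y axis, log scale) of 11 histone genes in each library, with BARD1 siRNA left of control siRNA for each gene, libraries numbered 4 as open circles and the mean of 4 libraries as a line. HIST1H2BD and HIST2H2BE show no overlap between the groups, and in 6 of the genes (HIST1H2BK, HIST1H1C, HIST1H4H, HIST1H1E, HIST1H3C and HIST1H4D) library 4 is the lowest of its group with either siRNA.

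No H3 or H4 gene passed either fit. HIST1H3H had 2.13, 2.50, 2.38 and 3.83 CPM in BARD1 siRNA libraries 1 to 4, against 2.55, 3.09, 3.46 and 2.30 CPM in control siRNA libraries 1 to 4, and HIST1H3C ran from 1.36 to 2.73 CPM with BARD1 siRNA and from 1.79 to 3.13 CPM with control siRNA. Both overlap widely between groups. HIST1H4H had 5.14, 4.65, 5.22 and 1.49 CPM in BARD1 siRNA libraries 1 to 4, against 3.79, 2.76, 3.55 and 2.04 CPM in control siRNA libraries 1 to 4. Libraries 1 to 3 of the BARD1 siRNA group were thus above every control siRNA library and library 4 was below every one (log2 fold change 0.44, SE 0.38, edgeR adjusted p = 0.614). HIST1H4D ran from 0.339 to 1.04 CPM with BARD1 siRNA and from 0.511 to 1.46 CPM with control siRNA. At the low end, HIST1H4L, chosen after its values were seen as the most negative member, had 1, 11, 0 and 1 reads in BARD1 siRNA libraries 1 to 4, against 6, 8, 11 and 13 reads in control siRNA libraries 1 to 4, and did not pass (edgeR adjusted p = 0.136 with the block and the blind filter).

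Without both libraries numbered 4, 6 of 45 members tested passed, against 30.4% of all genes (15.0% higher and 15.4% lower). HIST1H2BK (log2 fold change 0.19, edgeR adjusted p = 0.0329), HIST1H2BD, HIST2H2BE and HIST1H4H (log2 fold change 0.57, edgeR adjusted p = 0.0436) were higher, and HIST1H1C and HIST3H2A were lower. HIST2H2AC did not pass there (log2 fold change -0.58, edgeR adjusted p = 0.0874). HIST1H1C and HIST3H2A were thus called in the blocked fit, in each blocked fit with 1 pair left out and without the libraries numbered 4.

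Some histone transcripts also differed with the replicate number. In a fit with a term for the siRNA, 8 of 43 members (18.6%) differed between libraries numbered 4 and 1 to 3. Of all genes tested 46.2% were called there (22.1% higher and 24.1% lower). HIST3H2A (log2 fold change 0.40) and HIST2H2BE (0.52) were higher in the libraries numbered 4. HIST1H2BK (-0.31), HIST1H1C (-0.66), HIST1H2AC (-0.61), HIST1H4H (-1.20), HIST1H1B and HIST2H2BF were lower there. For HIST1H1C this difference (edgeR adjusted p = 8.7e-06) was larger in size than the -0.36 between BARD1 siRNA and control siRNA. The mitochondrial share moved with it, and its part was not tested.

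Many histone genes stand in pairs that point away from each other across a short shared promoter region, usually an H2A beside an H2B gene. The members held 11 such pairs, or 22 genes, 189 to 318 bases apart in the GRCh37 coordinates of the files. The higher partner had less than 3 times the FPKM of the lower one in 7 pairs, and the ratio ran from 1.11 for HIST1H3J and HIST1H2BO to 25.9 for HIST3H2A over HIST3H2BB and 61.0 for HIST1H2BK over HIST1H2AH. In the fit with the block and the blind filter the log2 fold changes of partners had the same sign in 4 pairs and opposite signs in 7. In that fit 3 of the 22 genes passed (13.6%, against 20.8% of all genes). Some of these signs are uncertain, such as those of HIST1H2BM (0.054, SE 0.70) and HIST1H2BG (-0.42, SE 1.10). Without the block HIST1H2BM was at -0.020, the same sign as its partner HIST1H2AJ (-0.46).

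In 1 of the pairs both partners passed the blocked test, in opposite directions. HIST2H2BE (GRCh37 chromosome 1, 149856010 to 149858232, minus strand) rose and HIST2H2AC (149858525 to 149858961, plus strand) fell, with 292 bases between them. The ratio of HIST2H2BE to HIST2H2AC in FPKM was 0.409, 0.222, 0.498 and 0.392 in BARD1 siRNA libraries 1 to 4, against 0.149, 0.0926, 0.158 and 0.163 in control siRNA libraries 1 to 4. FPKM divides by gene length, 2223 bases for HIST2H2BE and 437 for HIST2H2AC, so ratios below 1 do not rank the partners. In reads summed over all libraries HIST2H2BE had 1825 and HIST2H2AC 1582. The lengths are the same in every library, so the comparison of groups does not depend on them. The lowest BARD1 siRNA ratio was above the highest control siRNA ratio, and in the other 10 pairs the groups overlapped. The pair was singled out after its values were seen, so its ratio was not tested.

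Opposite changes were measured on the sides of the region between these partners, so a stretch that covers it is printed. It is the 250 bases before the start of HIST2H2BE on its own strand, 5′ to 3′, from RefSeq on GRCh38.p14, chr1:149886683-149886932, minus strand. Matches to CCAAT, ATTTGCAT and TATAAA on either strand are in capitals.
HIST2H2BE promoter: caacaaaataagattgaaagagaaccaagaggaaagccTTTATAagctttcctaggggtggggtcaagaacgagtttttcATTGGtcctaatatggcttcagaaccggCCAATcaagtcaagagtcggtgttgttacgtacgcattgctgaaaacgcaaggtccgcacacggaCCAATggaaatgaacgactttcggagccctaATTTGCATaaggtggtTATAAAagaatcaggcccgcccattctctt
The 250 bases before the start of HIST2H2AC cover nearly the same stretch on the plus strand, 149886668 to 149886917. The printed stretch ends at 149886932 and thus also holds the first bases of HIST2H2AC by RefSeq. ATTTGCAT is the octamer bound by POU2F1, a known activator of H2B genes, and here it stands beside the TATAAA nearest to the start of HIST2H2BE. Windows ran from 250 bases before to 50 after the start. For these, 39 of the 48 members matched a RefSeq entry by gene ID or, failing that, by a synonym listed for a single gene. ATTTGCAT, on either strand, was in 15 of 39, namely 7 of 11 H2B, 7 of 10 H2A, 1 of 7 H3, 0 of 7 H4 and 0 of 4 H1 promoters, against 1.80% of 27305 promoters. CCAAT was in 34 of 39 against 35.7%, and TATAAA in 26 of 39 against 12.0%. Partners of a pair share these windows, so they are not independent. Such matches are letters in a window, and the promoters of HIST2H2BE and HIST2H2AC both hold all 3 motifs.

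**Figure D4:**
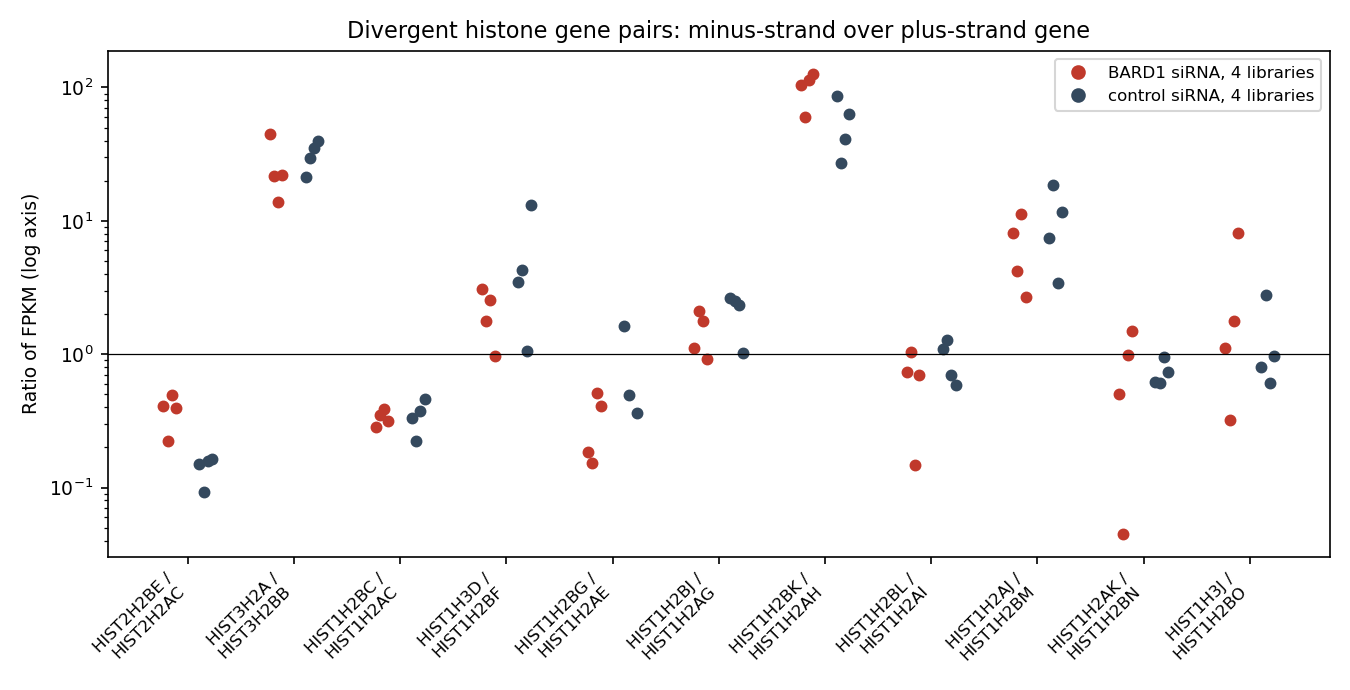
Ratio of FPKM of the minus-strand gene to the plus-strand gene (y axis, log scale) in each library for the 11 divergent pairs (x axis), BARD1 siRNA left of control siRNA. The groups are apart for HIST2H2BE over HIST2H2AC alone, and the control siRNA library in which HIST1H2BG is listed at 0 is not drawn.

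The genes that process, carry and accompany histones were described with lists chosen with earlier results of these data known. Of 33 tested genes for histone RNA processing, 0 were higher and 1 lower without the block (1.82% of all genes were called higher and 3.22% lower), and 3 were higher and 6 lower with it (11.0% and 12.6% of all genes). SLBP, the stem-loop binding protein, had 104.9 ± 18.4 CPM with BARD1 siRNA and 100.1 ± 10.3 CPM with control siRNA (SD, n = 4 each) and did not pass. WDR33, which recognises the polyadenylation signal, was lower, with 98.2 ± 4.56 CPM in BARD1 siRNA libraries and 126 ± 6.48 CPM in control siRNA libraries (log2 fold change -0.37, edgeR adjusted p = 0.0231). With the block the nuclease CPSF3 (-0.30), CPSF2 (-0.34) and CSTF2 (-0.46), all subunits of the polyadenylation machinery, were lower as well. CPSF2 and CPSF3 also act in stem-loop cleavage.

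Of 26 tested histone chaperone genes, 1 was higher and 2 lower without the block, and 2 were higher and 7 lower with it, where the shares over all genes were 1.82% and 3.22% without it and 11.0% and 12.6% with it. CHAF1B, a subunit of the chromatin assembly factor that loads H3 and H4 at forks, had 36.1 ± 1.80 CPM in BARD1 siRNA libraries and 52.7 ± 1.95 CPM in control siRNA libraries (log2 fold change -0.55, edgeR adjusted p = 0.00470). ASF1B, which hands H3 and H4 to it, was lower too (log2 fold change -0.33, edgeR adjusted p = 0.0470), and UBN2, of the HIRA complex, was higher (log2 fold change 0.75, edgeR adjusted p = 0.0470). MCM2, a helicase subunit that also binds histones, was lower with the block (-0.39). CHAF1B overlaps MORC3 on the same strand.

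Replication-independent histone genes, which have introns or ordinary polyadenylated transcripts and are made outside S phase as well, were next. Of 11 tested, 0 were higher and 3 lower without the block, and 1 was higher and 7 lower with it (of all genes 3.22% were called lower without it and 12.6% with it). H1F0, the linker histone of resting and differentiated cells, had 51.1, 47.7, 39.1 and 80.0 CPM in BARD1 siRNA libraries 1 to 4, against 119, 110, 113 and 108 CPM in control siRNA libraries 1 to 4. All BARD1 siRNA libraries were below all control siRNA libraries (log2 fold change -1.05, SE 0.19, edgeR adjusted p = 0.0157). H1FX, another linker histone, was lower (-0.59, edgeR adjusted p = 0.0300), as was the centromeric H3 variant CENPA (-0.54, edgeR adjusted p = 0.0196), which overlaps SLC35F6.

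Of 41 tested S phase genes, 0 were higher and 5 lower without the block, and 1 was higher and 29 lower with it. Of all genes 3.22% were called lower without the block and 12.6% with it. CDC45, part of the replicative helicase, had 40.6 ± 5.56 CPM in BARD1 siRNA libraries and 67.9 ± 5.39 CPM in control siRNA libraries (log2 fold change -0.74, edgeR adjusted p = 0.00660). RFC4, of the clamp loader (-0.64), thymidine kinase TK1 (-0.48), GINS3 of the helicase (-0.46) and RPA3 of the single-strand binding protein (-0.37) were the other 4 lower without the block. RFC4 overlaps EIF4A2 on the opposite strand. The median log2 fold change with the block was -0.27 for the S phase list, -0.32 for replication-independent histone genes, -0.11 for chaperones, -0.064 for histone RNA processing and -0.14 for the 43 replication-dependent histone genes, against 0.0012 for all genes tested. In bulk RNA, fewer cells in a phase and less RNA per cell cannot be told apart.

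**Figure D5:**
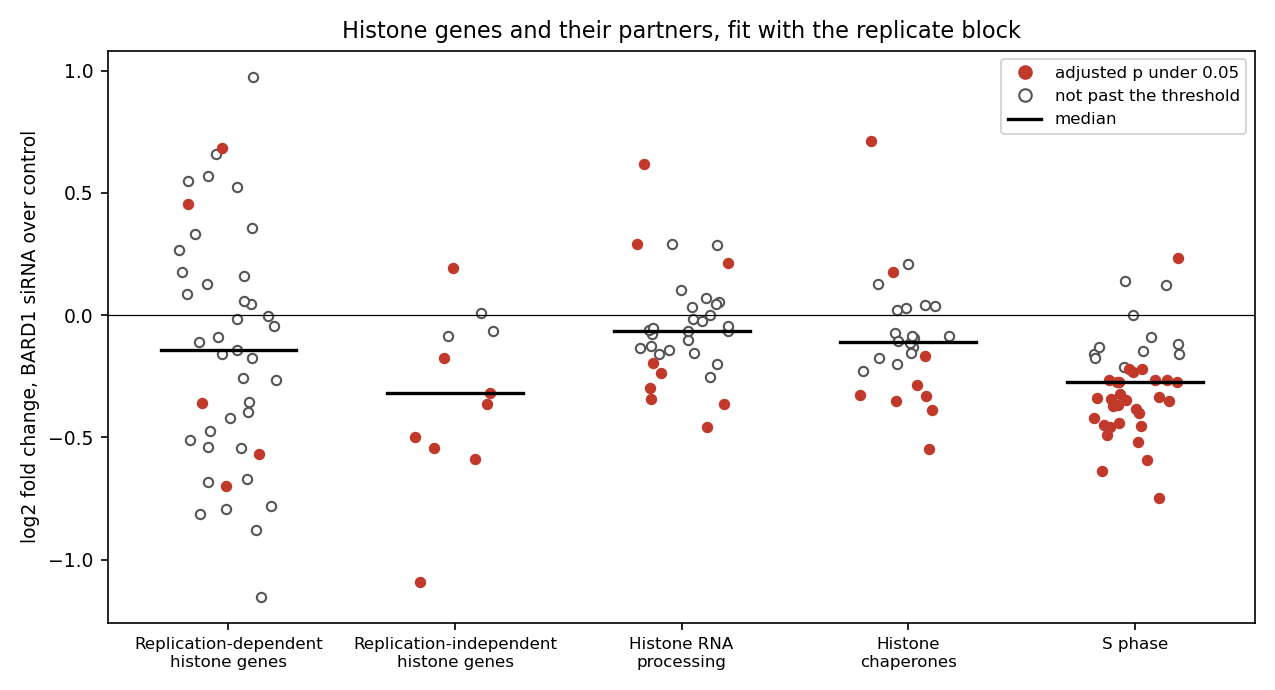
Log2 fold change of BARD1 siRNA over control siRNA in the fit with the replicate block (y axis) for the tested genes of 5 sets (x axis), with genes past an adjusted p of 0.05 filled and the median as a line. The replication-dependent histone genes spread from -1.15 to 0.97. Of them 5 of 43 are filled and of the S phase genes 30 of 41, against 23.6% of all genes called in this fit. The sets are not matched for depth: the median mean FPKM was 1.59 for the histone members and 25.9 for the S phase list.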

How the data were processed

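Polyadenylated RNA was sequenced from 8 libraries. Read counts per gene were made by the authors with fastp, HISAT2 (version 2.0.5) and featureCounts on GRCh37 (hg19), per the submitters' processing notes. The annotation release, the strand setting and the handling of multimapping reads are not given in the sources used here, and the labels name a directional and a non-directional protocol without saying which was used. The authors' deposited FPKM values equalled the counts divided by gene length and column total (relative difference up to 5e-12). They serve for levels between genes, which depend on those lengths. The authors' deposited log2 fold changes and adjusted p-values are from an unnamed tool. A further 8 per-sample columns of signal values, which the authors made by dividing counts by size factors as the values show, were not used, and 22217 rows that named no gene held 0 reads and were left out.

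The test was edgeR's (version 4.0.16, under R 4.3.3): filterByExpr, TMM, a two-sided quasi-likelihood F-test over the whole table and Benjamini-Hochberg adjustment with a threshold of 0.05. SE is the log2 fold change divided by the root of F. Floors of 3 counts cover counting error only. Same-numbered libraries deviated together from their group means (correlations 0.49, 0.487, 0.596 and 0.856 over 10146 genes from number 1 to number 4), and the replicate numbers of the labels were treated as pairs. Between unlike numbers among 1 to 3 the correlations were 0.366 to 0.51, so the pairing rests mostly on number 4. The biological coefficient of variation was 23.7% without this block and 10.6% with it.

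The alternatives were the block, RLE and upper-quartile scaling, no filter, a filter on the sum of reads, DESeq2 (version 1.42.0), each library left out, both libraries numbered 4 left out and, added after seeing the data, the block with the sum filter or without each pair. The scripts were tested on simulated data. Members and lists were chosen with earlier results of these data known. Named members were any past the threshold without the block, the 2 of each class with the highest mean FPKM and the 4 with the smallest p under the block, and named list genes were up to 4 per list with the smallest p without the block, plus BARD1. SLBP, RPA3 and members given only for their position, overlap or call were named outside that rule, after their values were seen. CASP8AP2, H2BFM, H2BFWT, PRIM2 and UHRF1 were listed but not analysed here. Stem-loops were read from GENCODE release 29 transcripts, where 25 members matched by gene ID and 23 by symbol, and promoters from RefSeq windows on GRCh38.p14.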

Additional observations from a re-analysis of the deposited data

Results flagged for a closer look

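In 26 groups of 4 values, those of BARD1, the 11 named members and the members' summed CPM with each siRNA, the highest or lowest library was compared with the rest by Dixon's ratio, which chance passes in about 1 of 20 groups, or 1.3 of 26. It was passed 3 times, each time by a library numbered 4. HIST1H1C had 21.8 CPM in BARD1 siRNA library 4, against 33.8 to 35.6 CPM in the other 3 libraries of its group. HIST1H4H had 1.49 CPM in BARD1 siRNA library 4, against 4.65 to 5.22 CPM in the other 3. BARD1 had 20.8 CPM in control siRNA library 4, against 26.9 to 28.0 CPM in the other 3. The mitochondrial share was 4.44% and 3.26% of counts in BARD1 siRNA library 4 and control siRNA library 4, and its part in these values was not tested.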

How the results depend on the processing

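The counts of calls depended on whether the replicate number entered the fit, and so did the share of all genes called. That share was 5.05% without the block, 4.09% with the blind filter and 10.3% in DESeq2. With the block it was 23.6%, or 20.8% under the blind filter. Without both libraries numbered 4 it was 30.4%. For the other settings the share over all genes is not given here, so their counts cannot be set against it. With the replicate block, with or without the blind filter on the sum, the calls higher and lower were 2 and 3 for the histone members, 3 and 6 for histone RNA processing, 2 and 7 for chaperones, 1 and 7 for replication-independent histone genes and 1 and 29 for S phase genes. Without both libraries numbered 4, under either filter, they were 4 and 2, 5 and 9, 3 and 8, 1 and 7, and 3 and 27 in the same order. DESeq2 gave 1 and 1 for the histone members, 1 and 3 for RNA processing and 10 lower for S phase genes. Upper-quartile scaling gave 3 lower for RNA processing, RLE scaling 1 lower for chaperones, no filter 1 lower for chaperones and 3 lower for S phase genes, and the filter on the sum 0 higher and 1 lower for chaperones. Leaving out 1 library or 1 pair gave 0 to 4 histone members higher and 0 to 3 lower, 0 to 7 and 0 to 12 for RNA processing, 0 to 3 and 1 to 8 for chaperones, 0 to 1 and 0 to 7 for replication-independent histone genes, and 0 to 3 and 2 to 29 for S phase genes. The causes of these shifts were not tested. BARD1 stayed past the threshold in every setting. Of 230 values of named members under alternatives, 182 kept direction and side of the threshold, 42 passed it newly and 6 changed sign. Those 6 all left out a library or a pair. HIST1H2BK was at -0.013 in the block without pair 2 and ran from there to 0.22 over such fits. HIST1H3H was at 0.027 without BARD1 siRNA library 1, 0.039 without control siRNA library 3 and 0.066 in the block without pair 3, and ran from -0.37 to 0.066. HIST1H3C was at 0.0045 without BARD1 siRNA library 4 and 0.015 without control siRNA library 2, and ran from -0.31 to 0.015. The log2 ratio of the summed CPM stayed within 0.16, the spread within groups, of its value of -0.057 in every setting, from -0.15 to 0.024. Depth limits the 32 members under 50 reads per library, where the SE of a log2 fold change reached 1.10.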
